A study of Rattus norvegicus with 16 samples.

Results

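The 10 genes described here are RNA markers of microglia, the resident macrophages of the brain, and of macrophages in general. They are P2ry12, Cx3cr1 and Csf1r, taken as resident markers, Aif1, Itgam and Tyrobp, taken as general myeloid markers, and Cd68, Ctss, Cd14 and Gpnmb, taken as markers of activation and phagocytosis. The genes were chosen by name, each was read from the probe whose RefSeq accession belongs to it, and for Ctss and Cd14, with 2 probes each, the brighter probe was used. They make up 10 of 26564 features tested, 9588 of which carried a gene symbol.

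RNA was measured in the right hippocampus of 16 male Wistar rats, with 1 array per rat and 4 rats per group. Under anaesthesia at 5 weeks of age the rats had received a guide cannula at the right amygdala, and 5 days later 1.0 µl was infused through it. For Fe day 5, Fe day 15 and Fe day 30 rats the solution was 100 mM ferric chloride in saline of pH 2.2, which provokes repeated seizures of limbic type, and their tissue was taken 5, 15 and 30 days after the infusion. Control rats received saline at pH 2.2 alone and were collected at day 15. Iron, age and days after the infusion therefore all differ between control and the Fe day 5 and Fe day 30 groups. All groups had the same surgery.

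Microglia survey brain tissue with fine processes and depend on signalling through the receptor Csf1r for survival. In the resting state they express receptors such as P2ry12, which senses nucleotides, and Cx3cr1, which binds the neuronal ligand Cx3cl1. After injury or seizures they can enlarge, divide and take up debris, and lysosomal and scavenging genes such as Cd68 and Gpnmb are then commonly raised while P2ry12 is commonly lowered. Macrophages that enter from blood or sit at the borders of the brain share many of these genes, and none of the 10 is specific to microglia in every setting.

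Promoters are shown for Cd68 and Gpnmb because these members moved together across arrays and because the transcription factor PU.1, which binds sequences with a GAGGAA core, is required for microglia and macrophages. The RefSeq promoter table on the build GRCr8 held 7 of the 10 members, and the 250 bases before the transcript start used by that table are printed 5′ to 3′ on the strand of the gene. Capitals mark GAGGAA or its reverse complement TTCCTC, and CATGTG or its reverse complement CACATG, a form of the E-box read by the MiT family factors.
Cd68: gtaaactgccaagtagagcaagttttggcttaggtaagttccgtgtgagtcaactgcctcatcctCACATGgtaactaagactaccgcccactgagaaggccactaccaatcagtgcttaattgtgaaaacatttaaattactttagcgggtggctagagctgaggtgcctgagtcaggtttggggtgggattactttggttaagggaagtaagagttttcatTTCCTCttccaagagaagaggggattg
Gpnmb: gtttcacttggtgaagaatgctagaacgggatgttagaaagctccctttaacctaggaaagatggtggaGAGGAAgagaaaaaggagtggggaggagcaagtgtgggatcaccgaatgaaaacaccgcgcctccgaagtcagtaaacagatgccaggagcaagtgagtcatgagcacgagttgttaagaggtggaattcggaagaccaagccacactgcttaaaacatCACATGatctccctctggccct
These windows lie at chr10:54882442-54882691 on the minus strand for Cd68 and chr4:79340878-79341127 on the plus strand for Gpnmb, and end where the RefSeq gene table starts the gene. Searched on both strands, GAGGAA was present in 6 of the 7 member promoters, all but that of Cx3cr1, and in 23.3% of 33469 rat promoters of the same length. The windows of Cx3cr1 and Cd14 lie wholly, and those of Itgam, Ctss and Csf1r partly, inside the span that the gene table gives for the gene, so some of these matches are not upstream of it. CATGTG was present in 2 of the 7, those of Cd68 and Gpnmb, and in 12.1% of the same promoters. The 2 motifs do not overlap each other, and a match of letters is a description and not a binding site.

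Values below are scaled intensities, that is, the background-subtracted signal of a spot after each array was brought to a common 75th percentile. An intensity is not comparable between probes. Differences are on the log2 scale. All 10 members passed the filter on dim probes and were well above background on 16 of 16 arrays, so none of them entered through a single group. Markers of hippocampal neurons were bright throughout, with Snap25 at 25986 to 40212 and Neurod6 at 2607 to 6134. The tissue also held markers of other parts of the brain to a varying extent. The choroid plexus gene Ttr ranged over the 16 arrays between 117 and 160549, and Fe day 30 replicate 3 was the array furthest from the rest in choroid plexus genes. RNA came from whole tissue, so more cells of a type and more RNA per cell cannot be told apart.

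No member passed the test between groups, and 2 of the 16 arrays stood apart in nearly all of them. Fe day 15 replicate 4 and Fe day 30 replicate 3 were above all 4 control arrays for 10 of 10 members each, while 31.5% and 22.9% of all features tested lay above all 4 control arrays on the same arrays. Each of these arrays was among the 2 highest of 16 for 9 of 10 members. Fe day 15 replicate 4 was the highest of all for 6 members and Fe day 30 replicate 3 for 3 members. The other arrays of the same groups did not share this. Fe day 15 replicates 1, 2 and 3 had 0 members above all control arrays, and 5, 7 and 5 members below all of them, where 31.9%, 25.8% and 21.8% of all features tested were below. Fe day 30 replicate 4 had 0 members above and 7 below all control arrays, where 20.2% of all features were below. Fe day 30 replicates 1 and 2 had 2 and 1 members above all control arrays, where 25.7% and 29.1% of all features were. They had 1 and 1 members below, where 25% and 26.6% of all features were. At Fe day 5, 6, 5, 3 and 1 members of replicates 1 to 4 were above all control arrays, where 26.6%, 27.3%, 21.8% and 24% of all features were.

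**Figure D1:**
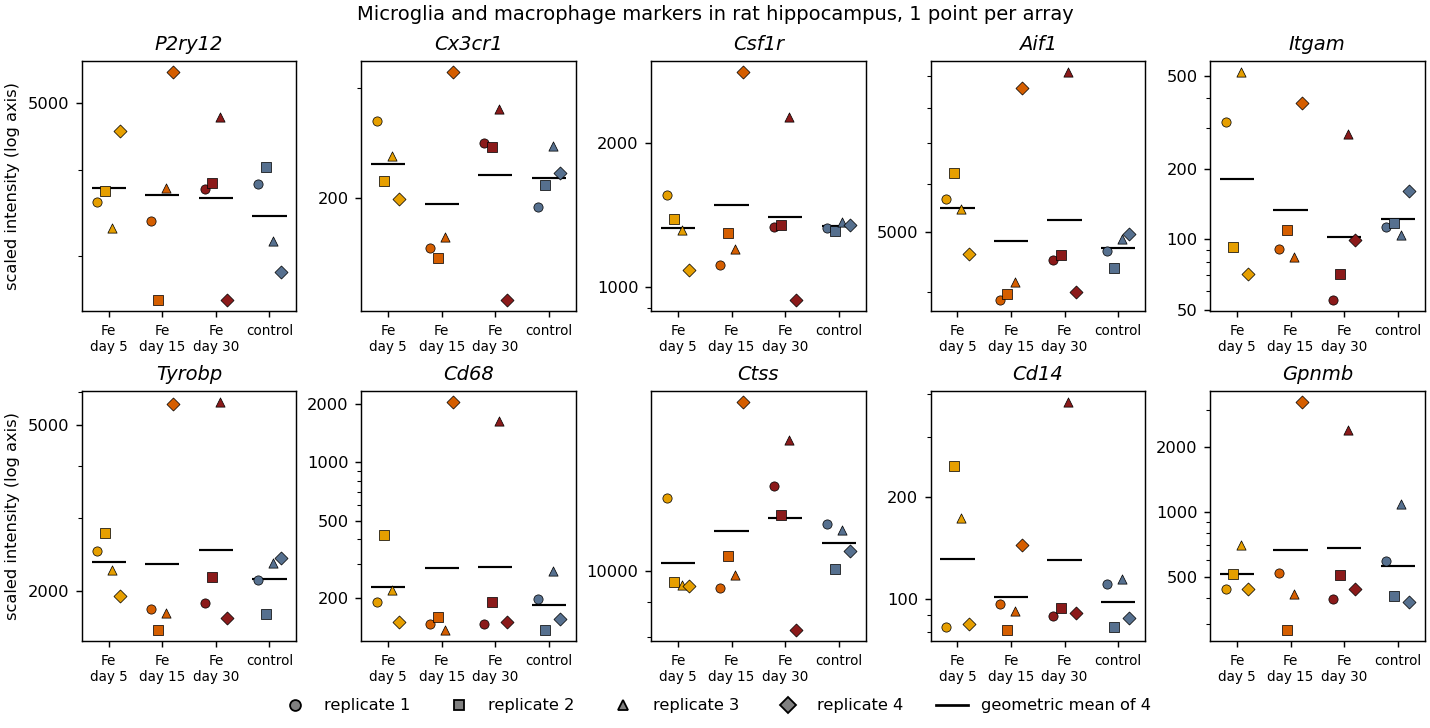
Scaled intensity (log axis) of each marker on each of the 16 arrays, with Fe day 5, Fe day 15 and Fe day 30 left of control; symbols are replicates and bars are geometric means of 4 arrays. Fe day 15 replicate 4 and Fe day 30 replicate 3 sit above all 4 control arrays in all 10 panels, and the remaining arrays of those groups sit inside or below the control range in most.

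Among the resident markers, P2ry12, the purinergic receptor that guides microglial processes, had scaled intensities of 3602, 3739, 3297 and 4558 at Fe day 5, 3375, 2598, 3773 and 5546 at Fe day 15, and 3754, 3828, 4772 and 2595 at Fe day 30, against 3818, 4051, 3156 and 2845 in control. The 4 groups overlapped, and the lowest values of all were those of Fe day 30 replicate 4 and Fe day 15 replicate 2. Cx3cr1, the fractalkine receptor, had 266, 213, 233 and 199 at Fe day 5, 166, 160, 173 and 318 at Fe day 15, and 245, 241, 278 and 137 at Fe day 30, against 193, 210, 242 and 219 in control. At Fe day 15, 3 of the 4 arrays were below every control array and the fourth was above every one. Csf1r, the receptor for the growth factors Csf1 and Il34, had 1557, 1387, 1314 and 1084 at Fe day 5, 1108, 1292, 1196 and 2804 at Fe day 15, and 1334, 1346, 2268 and 938 at Fe day 30, against 1328, 1307, 1366 and 1348 in control. The control arrays lay within 1.04-fold of each other for Csf1r, whereas the Fe day 15 arrays spanned 2.53-fold and the Fe day 30 arrays 2.42-fold.

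Among the general myeloid markers, Aif1, which encodes the calcium-binding protein Iba1, had 5678, 6265, 5467 and 4610 at Fe day 5, 3878, 3969, 4154 and 8623 at Fe day 15, and 4503, 4593, 9134 and 3994 at Fe day 30, against 4664, 4377, 4872 and 4967 in control. At Fe day 5, 3 of the 4 arrays were above every control array, and at Fe day 15 3 of the 4 were below. Tyrobp, the adaptor of Trem2 and other receptors, had 2500, 2765, 2244 and 1953 at Fe day 5, 1810, 1619, 1774 and 5615 at Fe day 15, and 1873, 2168, 5676 and 1730 at Fe day 30, against 2128, 1765, 2341 and 2400 in control. Its values on Fe day 15 replicate 4 and Fe day 30 replicate 3 were 2.62-fold and 2.65-fold the control mean, and all other values lay between 1619 and 2765. Itgam, the integrin chain CD11b, had 317, 92.7, 517 and 71 at Fe day 5, 90.4, 110, 84.2 and 383 at Fe day 15, and 55, 71.1, 283 and 99.1 at Fe day 30, against 113, 117, 104 and 160 in control. Itgam was the exception among the members, since its highest array was Fe day 5 replicate 3, with Fe day 5 replicate 1 also above every control.

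Among the activation markers, Cd68, a lysosomal glycoprotein of phagocytes, had 189, 420, 220 and 150 at Fe day 5, 147, 159, 137 and 2041 at Fe day 15, and 147, 190, 1632 and 149 at Fe day 30, against 197, 137, 273 and 156 in control. Fe day 15 replicate 4 was 11.1-fold and Fe day 30 replicate 3 was 8.87-fold the control mean, and the other Fe day 15 and Fe day 30 arrays were all inside the range of the controls or within rounding of its lower end. Gpnmb, a glycoprotein of lipid-handling phagocytes, had 437, 514, 705 and 438 at Fe day 5, 521, 284, 414 and 3251 at Fe day 15, and 393, 507, 2410 and 439 at Fe day 30, against 592, 405, 1094 and 382 in control. Control replicate 3 was the highest control array for both genes. Cd14, the co-receptor for bacterial lipopolysaccharide, had 82.9, 247, 173 and 84.5 at Fe day 5, 97.2, 81.6, 92.6 and 144 at Fe day 15, and 89.7, 94.3, 379 and 91.1 at Fe day 30, against 111, 83.2, 115 and 88 in control. Here Fe day 5 replicates 2 and 3 were above Fe day 15 replicate 4. Ctss, the lysosomal protease cathepsin S, had 12765, 9634, 9534 and 9515 at Fe day 5, 9423, 10494, 9842 and 17663 at Fe day 15, and 13322, 12089, 15523 and 8202 at Fe day 30, against 11716, 10056, 11491 and 10706 in control. Its second probe followed the first closely, with an SD over 16 arrays of 0.066 for the log2 difference between the 2 probes, and the 2 probes of Cd14 differed with an SD of 0.20.

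Across groups these values gave no called member. In limma's moderated test with Benjamini-Hochberg adjustment over all 26564 features, 0 of 10 members passed an adjusted p of 0.05 in each of the 6 comparisons, and the lowest adjusted p was 0.73. For comparison, 0% of all features passed for Fe day 5 and for Fe day 15 minus control, and 0.00753% for Fe day 30 minus control. At an unadjusted p under 0.05, 0 of 10 members passed in each comparison, against 10.3% of all features for Fe day 5, 11.5% for Fe day 15 and 7.77% for Fe day 30 minus control. Likewise 0 members had Fe and control arrays that did not overlap, against 7.84%, 9.83% and 6.24% of all features at Fe day 5, 15 and 30. Between the Fe days, 0 members passed an unadjusted p under 0.05, against 7.19% of all features for Fe day 15 minus Fe day 5, 6.49% for Fe day 30 minus Fe day 15 and 2.96% for Fe day 30 minus Fe day 5.

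The fitted differences were small beside their intervals. For Cd68, the log2 difference from control was 0.30 ± 0.86 at Fe day 5, 0.63 ± 0.86 at Fe day 15 and 0.64 ± 0.86 at Fe day 30 (SE, n = 4 per group, limma), with a 95% interval of -1.22 to 2.48 at Fe day 15. This interval reached further up than down. The difference for Gpnmb was 0.25 ± 0.70 at Fe day 15, with an interval of -1.24 to 1.74. The steadier probes were bounded more closely. For P2ry12 the difference was 0.14 ± 0.22 at Fe day 5, 0.10 ± 0.22 at Fe day 15 and 0.09 ± 0.22 at Fe day 30, and at Fe day 15 the interval was -0.37 to 0.57. Ctss had an interval of -0.38 to 0.51 at Fe day 15, the narrowest of the 10 there. The largest difference from control at Fe day 5 was that of Itgam, 0.58 ± 0.66 (adjusted p = 0.76, limma), for which 2 of the 4 arrays were above the control mean.

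**Figure D2:**
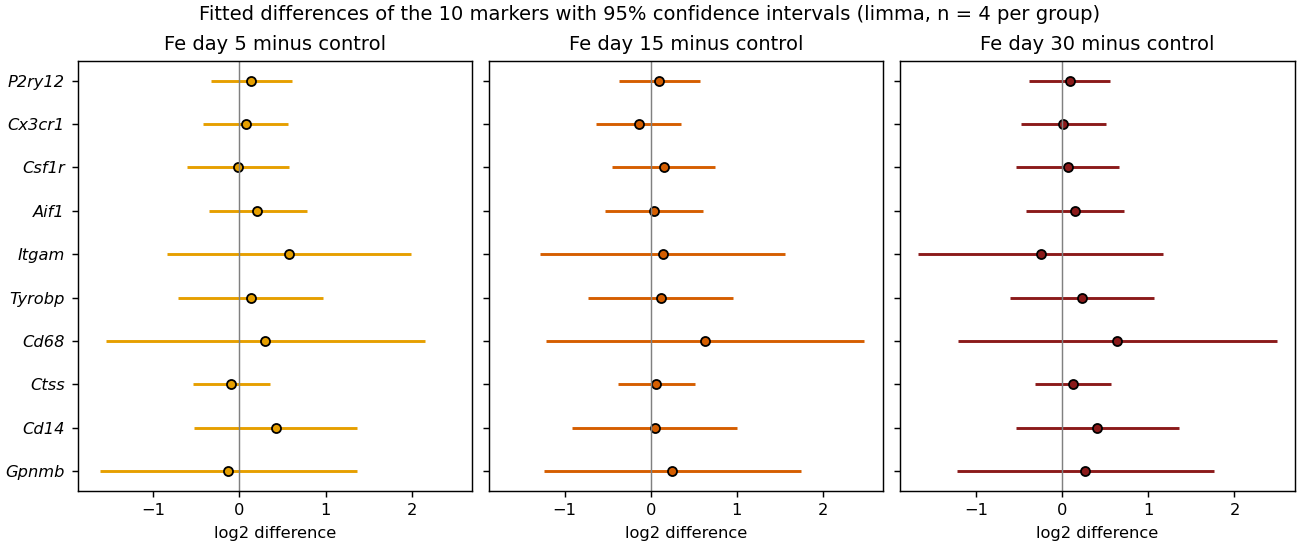
Log2 difference from control of each marker at Fe day 5, Fe day 15 and Fe day 30 (points) with 95% confidence intervals (lines) from the limma fit of 16 arrays. Every interval spans 0, and those of Cd68, Gpnmb and Itgam are the widest.

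As a list, the members had a median log2 difference from control of 0.13 at Fe day 5, 0.11 at Fe day 15 and 0.14 at Fe day 30, where the medians over all features were -0.016, 0.0014 and -0.013. The difference was above 0 for 7, 9 and 9 of the 10 members, against 45.8%, 50.3% and 46.6% of all features. These counts rested on the 2 high arrays at Fe day 15 and Fe day 30. Without both, 0 of 10 members were above control at Fe day 15 with a median of -0.27, and 1 of 10 at Fe day 30 with a median of -0.14. The 2 arrays were picked by the values of the members themselves, so a lower median without them follows in part from that choice.

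The spread of the members among rats was wider at Fe day 15 and Fe day 30 than in control. The median SD of the members was 0.22 at Fe day 5, 0.59 at Fe day 15 and 0.67 at Fe day 30, against 0.22 in control. The median SD over all features was 0.18, 0.18 and 0.19 at Fe day 5, 15 and 30, against 0.13 in control. The share of all features with an SD above that of the median member was 40.5% at Fe day 5, 6.96% at Fe day 15 and 5.86% at Fe day 30, against 25.7% in control. No test was made of these spreads.

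As sets, though not gene by gene, activation markers were raised more than resident markers on the 2 high arrays. A score was taken per array as the median, over the genes of a set, of each gene's log2 distance from its control mean. On Fe day 15 replicate 4 the score was 0.69 for the 3 resident markers, 1.39 for the 3 general myeloid markers and 1.61 for the 4 activation markers. This 1.61 is the middle of a gap, with Cd68 at 3.47 and Gpnmb at 2.53 above it and Ctss at 0.69 and Cd14 at 0.55 below. On Fe day 30 replicate 3 it was 0.48, 1.22 and 2.02 for the same sets. Activation minus resident was thus 0.92 and 1.55 on these 2 arrays, against -0.30 to 0.36 over the 4 control arrays, and -0.36 to 0.48 over the 10 other Fe arrays.

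The resident markers were above control on both arrays and not below it. On Fe day 15 replicate 4 P2ry12 was 1.62-fold, Cx3cr1 1.48-fold and Csf1r 2.1-fold the control mean, and on Fe day 30 replicate 3 they were 1.39-fold, 1.29-fold and 1.7-fold. Ctss, at 1.61-fold and 1.41-fold, was as close to control as the resident markers. Cd14 was 1.47-fold on Fe day 15 replicate 4, no higher than the resident markers there, and 3.86-fold on Fe day 30 replicate 3. The activation markers were thus not raised alike. By group, activation minus resident averaged 0.082 ± 0.38 at Fe day 5, 0.26 ± 0.45 at Fe day 15 and 0.30 ± 0.86 at Fe day 30, against -0.011 ± 0.31 in control (SD, n = 4 each). These means differed from control by less than 1 SD of the Fe groups.

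**Figure D3:**
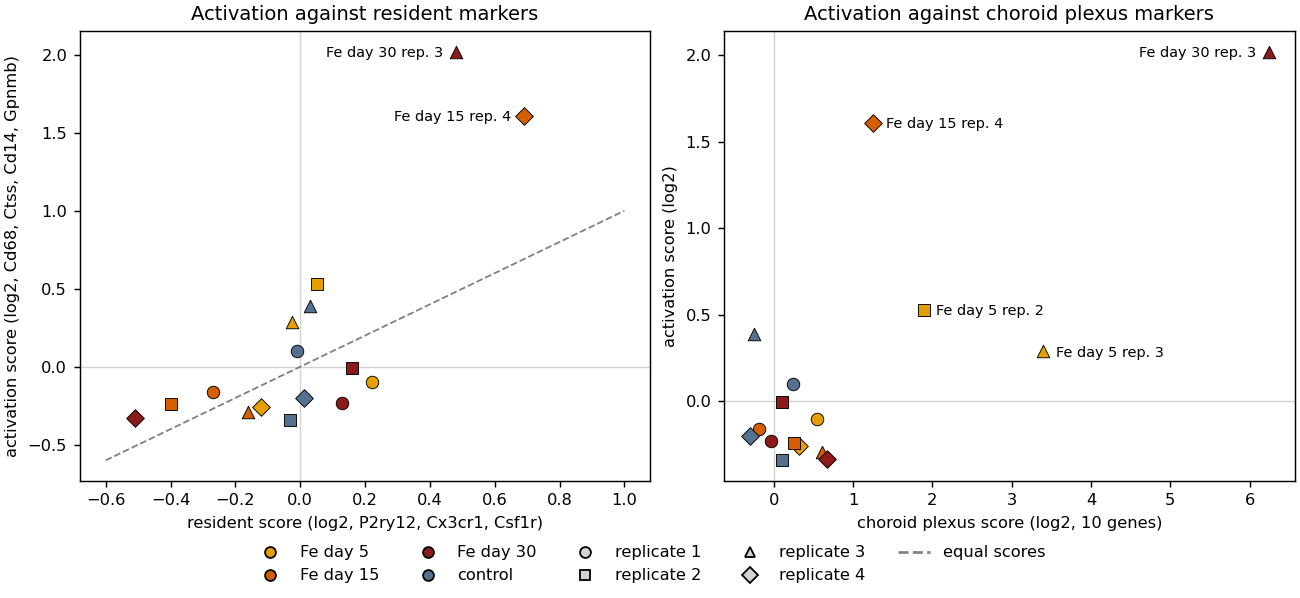
Activation score against resident score (left, dashed line where both are equal) and against the choroid plexus score (right), all on the log2 scale relative to the control mean, 1 point per array. Fe day 15 replicate 4 and Fe day 30 replicate 3 lie far above the line on the left; on the right, Fe day 5 replicates 2 and 3 have higher choroid plexus scores than Fe day 15 replicate 4 and lower activation scores.

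Most genes of the wider microglial and myeloid lists were also high on the 2 high arrays. Of 27 further general myeloid genes measured, 26 were above all 4 control arrays on Fe day 15 replicate 4 and 26 on Fe day 30 replicate 3, with scores of 1.10 and 1.03. Of 12 further resident microglial genes, 11 and 10 were above all controls, with scores of 0.51 and 0.55. Of 22 further activation genes, 17 and 19 were, with scores of 0.76 and 0.98. Over all features tested, 31.5% and 22.9% were above all 4 control arrays on the same arrays, which were picked by the values of the members. Lgals3, the lectin galectin-3, was 3.12 and 2.90 above the control mean on the log2 scale on the 2 arrays, and Ccl3, a chemokine, was 3.22 and 3.01 above. Spp1, which encodes osteopontin, was 5.18 and 3.88 above on the 2 arrays and also 4.63 above on Fe day 15 replicate 1, where the members were low. These 3 genes were picked after their values were seen.

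In the group comparisons, 0 genes of the wider microglial and myeloid lists passed an adjusted p of 0.05 for any Fe day minus control. At an unadjusted p under 0.05, 1 of 12 further resident genes was higher and 0 lower at Fe day 5, and 0 were higher and 1 lower at Fe day 15 and at Fe day 30. Of 22 further activation genes, 1 was higher and 0 lower at Fe day 15, and 0 passed in either direction at Fe day 5 and Fe day 30. Of 27 further general myeloid genes, 0 passed at Fe day 5 and Fe day 30, and 0 were higher and 1 lower at Fe day 15. Over all features, 4.06% were higher and 6.28% lower at that limit at Fe day 5, 5.17% and 6.32% at Fe day 15, and 3.12% and 4.65% at Fe day 30. The gene of the general myeloid list was Coro1a, an actin regulator taken here as a leukocyte gene. Its scaled intensities were 15818, 18725, 19943 and 18659 at Fe day 15, against 21785, 21993, 22633 and 23442 in control. The groups did not overlap, as for 9.83% of all features at that day, and the log2 difference was -0.30 ± 0.082 (SE, limma, adjusted p = 0.24). On the log2 scale Coro1a was -0.27 from the control mean on Fe day 15 replicate 4 and -0.12 on Fe day 30 replicate 3, unlike most of its list. Which cells its RNA came from was not tested. Tgfbr1, a receptor for the factor that keeps microglia in their resident state, had 101, 91.2, 97.3 and 96.3 at Fe day 15, against 125, 129, 131 and 140 in control, a log2 difference of -0.44 ± 0.13 (adjusted p = 0.27, limma), which was -0.25 when all probes of a gene were averaged. Hpgds, a prostaglandin synthase, had 59.3, 88.6, 66.3 and 67.9 at Fe day 5, against 43.6, 47.9, 46.1 and 42.4 in control, a difference of 0.63 ± 0.23 (adjusted p = 0.47, limma). Over the 28 alternatives the difference for Hpgds ranged between 0.18 and 0.71, the lowest being that with a normexp background correction. Cd44, an adhesion receptor, differed by 1.04 ± 0.37 at Fe day 15 (adjusted p = 0.34, limma), and its 4 arrays there, 495, 242, 381 and 848, overlapped the control values of 303, 160, 245 and 181. With array weights the difference for Cd44 was 0.69.

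The remaining genes of lowest p in these lists gave wide or small differences with groups that overlapped. Olfml3, a secreted protein of microglia, had 30.5, 198, 63.5 and 23.2 at Fe day 5, against 21.6, 25.1, 32.8 and 25 in control, and its 2 high arrays were again replicates 2 and 3. Lcp1, an actin-bundling protein of leukocytes, differed from control by 0.57 ± 0.35, 0.56 ± 0.35 and 0.54 ± 0.35 at Fe day 5, 15 and 30 (SE, limma). Mpeg1, a pore-forming protein of macrophages, was dim, at 7.7, 8.38, 2.5 and 22.9 at Fe day 15, against 17.1, 10.1, 20.7 and 17.5 in control. Lpl, a lipase that phagocytes also make, differed by 0.20 ± 0.22, -0.22 ± 0.22 and 0.27 ± 0.22 at the 3 days. Hmox1, which degrades haem and is induced by iron and oxidative stress, had 371, 436, 389 and 569 at Fe day 15, against 350, 308, 385 and 299 in control, a log2 difference of 0.38 ± 0.21 (adjusted p = 0.50, limma), with 1 of these values from the high array.

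Of the 4 signals to microglia measured, the ligand of Cx3cr1 had the lowest p over the 4 groups (adjusted p = 0.55, moderated F-test). Cx3cl1, a membrane chemokine made by neurons, had scaled intensities of 95189, 76432, 96565 and 110243 at Fe day 5, 98256, 105424, 115453 and 78247 at Fe day 15, and 98637, 92406, 78639 and 106957 at Fe day 30, against 128031, 133954, 115759 and 124803 in control. All 12 Fe arrays were below all 4 control arrays, the closest being Fe day 15 replicate 3 at 115453 against the lowest control at 115759. Taken by day, 7.84%, 9.83% and 6.24% of all features did not overlap control at Fe day 5, 15 and 30. The share of all features that did so at all 3 days was not counted. The log2 difference was -0.42 ± 0.13 at Fe day 5 (adjusted p = 0.47, limma), -0.35 ± 0.13 at Fe day 15 (adjusted p = 0.36, limma) and -0.42 ± 0.13 at Fe day 30 (adjusted p = 0.54, limma), so it did not pass after adjustment in any comparison. The 3 comparisons share the control arrays. Under the 28 alternatives the difference for Cx3cl1 kept its sign, at -0.50 to -0.28 for Fe day 5, -0.46 to -0.24 for Fe day 15 and -0.50 to -0.30 for Fe day 30, with 0 calls and adjusted p-values from limma of 0.159 to 0.904 at Fe day 5, 0.181 to 0.645 at Fe day 15 and 0.131 to 0.982 at Fe day 30. Of the other signals measured, Csf1, a ligand of Csf1r, differed by 0.27 ± 0.18, 0.23 ± 0.18 and 0.25 ± 0.18 at Fe day 5, 15 and 30, and Cd200, a neuronal ligand that restrains microglia, by 0.23 ± 0.15, 0.29 ± 0.15 and 0.13 ± 0.15, both with groups that overlapped (SE, limma).

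Genes of leukocytes from blood were measured beside the members. S100a9, a calcium-binding protein of neutrophils and monocytes, had 22.8, 50.1, 39.2 and 37.1 at Fe day 5 and 22.6, 27.9, 20.2 and 29.3 at Fe day 15, against 10.2, 9.55, 16.1 and 14.3 in control. The Fe arrays of both days lay above every control array, with log2 differences of 1.55 ± 0.34 (adjusted p = 0.47, limma) and 1.01 ± 0.34 (adjusted p = 0.32, limma). Of all features, 7.84% and 9.83% did not overlap control in either direction at these days. At Fe day 30 S100a9 had 11.7, 21.4, 31.7 and 9.74, which overlapped control. Its partner S100a8 had 22.6, 33.7, 17.1 and 20.7 at Fe day 5, against 4.25, 2.12, 10.5 and 2.38 in control, where only 1 of 4 arrays was well above background. S100a8 was so on 4 of 4 arrays at Fe day 5, 3 at Fe day 15 and 2 at Fe day 30. It thus passed the filter on dim probes only through Fe day 5, the group where it was highest. Both probes are dim, and with a normexp background correction the difference for S100a9 was 0.25 at Fe day 5 and 0.16 at Fe day 15. Hp, which encodes haptoglobin, differed by -0.41 ± 0.17 at Fe day 5 (adjusted p = 0.47, limma). The 8 monocyte and neutrophil genes that passed the filter on dim probes, S100a8 among them, gave a score of 1.22 on Fe day 15 replicate 4 and 1.02 on Fe day 30 replicate 3, against -0.13 to 0.21 in control. Of the 9 lymphocyte genes on the array, 4 were measured, and Cd4, Cd8a, Cd2, Cd79b and Gzmb did not pass. Cd3g, a chain of the T cell receptor complex, had 16.1, 56.5, 40.5 and 12.7 at Fe day 5, against 9.53, 12.8, 11.1 and 28.5 in control. Nkg7, a gene of cytotoxic cells, ranged over all arrays between 28.5 and 44.8. The probe of Cd3e had 1.47, 3.66, 157 and 49 at Fe day 5, against 304, 257, 206 and 113 in control, a range among rats unlike that of Cd3g.

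Markers of neighbouring tissue moved with the members on one of the high arrays more than on the other. The choroid plexus score, over 10 genes, was 1.25 on Fe day 15 replicate 4 and 6.24 on Fe day 30 replicate 3, against -0.30 to 0.24 in control. The score of 16 genes of meninges and fibroblasts was 0.68 and 3.15 on the same arrays, against -0.063 to 0.04 in control. Both kinds of markers were also high on Fe day 5 replicates 2 and 3, where choroid plexus scored 1.89 and 3.40 and meninges 3.93 and 2.13. There the resident score was 0.053 and -0.024, the general myeloid score 0.37 and 0.21 and the activation score 0.53 and 0.29. On these arrays 5 and 3 of 10 members were above all control arrays, against 27.3% and 21.8% of all features. Below all control arrays were 2 and 1 members, against 35.3% and 26.2% of all features. The summed scaled intensity of the choroid plexus genes was 6873 to 31339 at Fe day 5, 4738 to 6687 at Fe day 15 and 3705 to 275931 at Fe day 30, against 3823 to 5239 in control. The score of border macrophages is over 5 measured genes, and Cd163, Ccr1 and Siglec1 did not pass the filter on dim probes. F13a1 is among the 5 and passed that filter through Fe day 5 alone, so the scores at Fe day 5 rest in part on that choice. Macrophages of the brain's borders gave a score of -0.045 on Fe day 15 replicate 4 and 0.99 on Fe day 30 replicate 3, against -0.34 to 0.36 in control. These macrophages scored 1.89 and 1.30 on Fe day 5 replicates 2 and 3 and 0.96 on Fe day 15 replicate 2, where the score of all members was -0.26. Mrc1, their mannose receptor, had 109, 576, 224 and 91.2 at Fe day 5, 129, 140, 107 and 131 at Fe day 15, and 103, 108, 385 and 84 at Fe day 30, against 84, 67.5, 99.4 and 121 in control. F13a1, another gene of these cells, was well above background on 0 of 4 control arrays and 4 of 4 Fe day 5 arrays. At Fe day 15 and Fe day 30 it was so on 2 of 4 arrays each. F13a1 thus passed the filter on dim probes through Fe day 5 alone, the group where it was highest. Its values were 11.7, 77.1, 30 and 8.51 at Fe day 5, against 4.68, 4.85, 5.74 and 9.5 in control, and the groups overlapped. By group mean F13a1 was at least 2.68-fold higher at Fe day 5 (adjusted p = 0.47, limma). This bound was taken against the lowest signal among probes well above background on each control array, and rests mainly on replicates 2 and 3. Pf4, a chemokine of platelets and border macrophages, had 259, 581, 567 and 316 at Fe day 5, against 68.1, 210, 258 and 165 in control, a log2 difference of 1.37 ± 0.60 (adjusted p = 0.48, limma). Of the other lists, the 3 red blood cell genes scored 1.61 on Fe day 15 replicate 4 and 1.89 on Fe day 30 replicate 3, against -0.25 to 0.19 in control. They also scored 1.96 and 1.30 on Fe day 5 replicates 2 and 4 and 1.01 and 1.19 on Fe day 15 replicates 2 and 3, where the score of all members was 0.088, -0.21, -0.26 and -0.23. Astrocyte genes scored 0.35 and 0.077 on the 2 high arrays and neuronal genes -0.18 and -0.26. Over all arrays oligodendrocyte scores ranged between -0.34 and 0.76 and endothelial scores between -0.22 and 0.46. The part of blood and neighbouring tissue in the members' values was not tested. Without Fe day 5 replicates 2 and 3 and Fe day 30 replicate 3 together, the median log2 difference of the members was 0.025 at Fe day 5, 0.11 at Fe day 15 and -0.14 at Fe day 30.

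**Figure D4:**
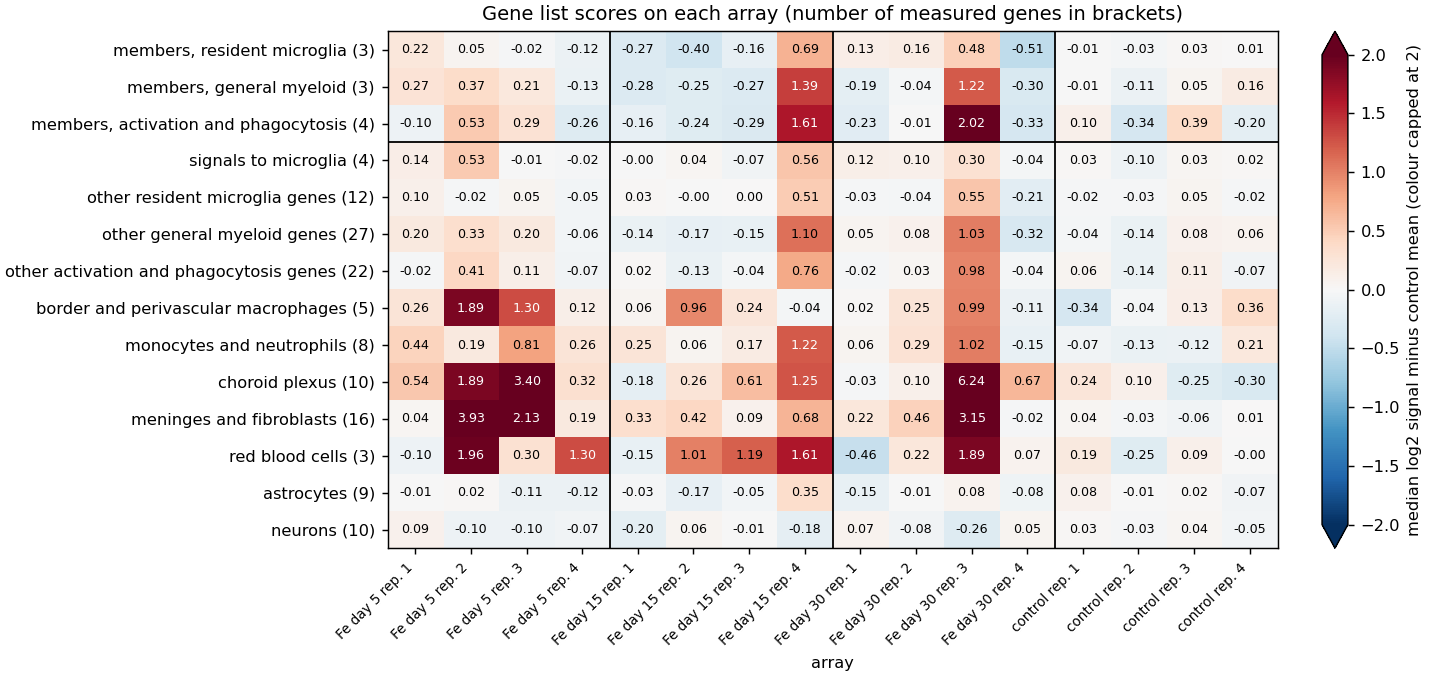
Score of each gene list on each array, as the median log2 signal minus the control mean, with the Fe groups left of control and the number of measured genes in brackets; colours are capped at 2. Rows of the members and of other myeloid genes are high on Fe day 15 replicate 4 and Fe day 30 replicate 3, and the rows of choroid plexus and meninges are high on Fe day 30 replicate 3 and Fe day 5 replicates 2 and 3.

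The 2 high arrays were on different slides and in different positions. The 16 arrays lay on 7 slides, and 4 slides held a control and an Fe array. Within them the median difference of the members was 1.17 for Fe day 30 replicate 3 minus its control, with 10 of 10 members higher, and -0.30, -0.13, -0.39, -0.46 and -0.18 for the other 5 pairs, with 2, 4, 1, 0 and 3 members higher. Fe day 15 replicate 4 shared its slide with Fe day 5 replicate 1 and with no control. All 4 control arrays were in position 1 of their slides and none of the Fe day 15 or Fe day 30 arrays were. Position and group therefore cannot be told apart at either of those days.

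The genes whose profile over the 16 arrays was most like the median of the members, among 9578 symbols, were Rac2, Ptpn6, Myo1f, Ncf1, Pycard, Cyp2d5, Itgb2 and Vav1. Pearson's r was 0.98 for Rac2 and 0.96 for each of the other 7, and Spearman's rho was 0.95 for Rac2. Without Fe day 15 replicate 4 and Fe day 30 replicate 3, r was 0.91 for Rac2, a small GTPase of blood cells, and 0.76 to 0.82 for the others. These correlations pool the arrays of 4 groups and share the scaling of each array. Itgb2, the integrin chain that pairs with Itgam, was 1.93 and 1.96 above the control mean on the 2 high arrays, and Ncf1, a subunit of the phagocyte oxidase, was 1.91 and 2.01 above.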

How the data were processed

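The submitters' processing notes name Agilent Feature Extraction 9.5. Scanner files as deposited hold, per the file headers, a background-subtracted processed intensity per spot on a linear scale, with marks for spots well above background, saturated or non-uniform. Intensity values of the deposited series table matched it in 100% of entries at a relative tolerance of 1e-06. Spots per array numbered 45018, 1639 of them controls; 0 were saturated, and the 75th percentile was 553 to 924. The number of arrays limits the precision.

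Here, log2 of the processed signal minus the 75th percentile of the array was averaged over spots of a probe, and 122 probes left with no unmarked spot were dropped. A probe was kept if well above background throughout 1 group or more, and was named through RefSeq accessions (15040 of 16073 matched; assembly GRCr8, names only). The probe with the highest mean stood for a gene. Scaled intensities were multiplied back to a common 75th percentile of 732. A one-way model of 16 arrays was fitted with limma 3.58.1 in R 4.3.3, two-sided, and was checked on simulated data. Nothing says how the rats of a group were related, so p-values measure the spread between these rats.

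The members and 17 lists were chosen with earlier results of these data known. Genes named were all 10 members, the 3 genes of lowest F-test p in each of 7 wider lists and any called, and the 8 symbols most like the members' median. Alternatives were another background correction, scaling, filter, probe summary, array weights, slide or replicate block, groups fitted alone and arrays left out. The gene list of lymphocytes had 4 measured genes and scores between -0.45 and 0.35 over all arrays.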

Additional observations from a re-analysis of the deposited data

Results flagged for a closer look

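Within the groups of 4 arrays, the highest or lowest array was checked for a gap to the nearest other that exceeded Dixon's critical value for 4 samples, a limit that chance passes in about 1 of 20 groups. Of 60 groups checked, over 10 members and 5 scores, 15 passed. On single members, 10 of 40 did, 5 of them on Fe day 15 replicate 4, 4 on Fe day 30 replicate 3 and 1 on Fe day 5 replicate 1. The members and scores share these arrays, so the 15 are not independent.

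On Fe day 15 replicate 4 the log2 value minus the control mean was 0.56 for Cx3cr1, 1.07 for Csf1r, 0.87 for Aif1, 1.39 for Tyrobp and 3.47 for Cd68. The score of all members was 0.97 there, that of the general myeloid markers 1.39 and that of the activation markers 1.61. On Fe day 30 replicate 3 the value was 0.95 for Aif1, 3.15 for Cd68, 1.95 for Cd14 and 2.10 for Gpnmb, and the scores of the general myeloid and activation markers were 1.22 and 2.02. On Fe day 5 replicate 1 Ctss was 0.22 above the control mean, while the other 3 arrays of that group were at -0.21 to -0.19. The cause of these gaps was not tested.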

How the results depend on the processing

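Under 28 alternatives, 0 of 10 members were called in each of the 6 comparisons, with a lowest adjusted p from limma of 0.099. Of 840 differences of single members from control, 757 kept their direction and 83 changed sign, none of them called. The cause was not tested, and leaving out arrays shows only which arrays a sign rested on. With slide as a block the median of the members at Fe day 5 was -0.17. Signs turned in that fit for P2ry12 (-0.072), Cx3cr1 (-0.27), Tyrobp (-0.086) and Cd68 (-0.26) at Fe day 5, for Csf1r (-0.061), Aif1 (-0.12), Itgam (-0.40), Tyrobp (-0.12), Ctss (-0.075) and Gpnmb (-0.068) at Fe day 15, and for Cx3cr1 (-0.14) and Csf1r (-0.039) at Fe day 30. With array weights they turned for Csf1r at Fe day 5 (0.063), for P2ry12 (-0.079), Aif1 (-0.10), Itgam (-0.074), Tyrobp (-0.12), Ctss (-0.045), Cd14 (-0.10) and Gpnmb (-0.23) at Fe day 15, and for Csf1r (-0.051), Aif1 (-0.013), Tyrobp (-0.023) and Gpnmb (-0.15) at Fe day 30. Over all features that fit called 182 at Fe day 15 and 25 at Fe day 30, against 0 and 2 without weights. Quantile normalization gave 0.016 and scaling on probes above background 0.013 for Csf1r at Fe day 5, and the normexp background gave -0.005 for Cx3cr1 at Fe day 30. Without Fe day 5 replicates 2 and 3 and Fe day 30 replicate 3, the 3 arrays highest in markers of choroid plexus or meninges, signs turned for Cd68 (-0.13), Ctss (0.0064) and Cd14 (-0.23) at Fe day 5 and for P2ry12 (-0.039), Cx3cr1 (-0.10), Csf1r (-0.17), Aif1 (-0.11), Tyrobp (-0.16), Cd68 (-0.19), Cd14 (-0.10) and Gpnmb (-0.34) at Fe day 30.

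Leaving out 1 array at a time moved the median of the members between 0.076 and 0.18 at Fe day 5, -0.27 and 0.22 at Fe day 15, and -0.14 and 0.30 at Fe day 30, where the lowest values came without Fe day 15 replicate 4 and without Fe day 30 replicate 3. For members whose sign turned, the range was -0.0063 to 0.13 for Cx3cr1, -0.091 to 0.083 for Csf1r, -8.1e-05 to 0.50 for Cd68 and -0.32 to 0.19 for Gpnmb at Fe day 5. At Fe day 15 it was -0.10 to 0.27 for P2ry12, -0.16 to 0.29 for Csf1r, -0.24 to 0.15 for Aif1, -0.37 to 0.36 for Itgam, -0.31 to 0.29 for Tyrobp, -0.32 to 0.98 for Cd68, -0.15 to 0.16 for Ctss, -0.12 to 0.15 for Cd14 and -0.51 to 0.66 for Gpnmb. At Fe day 30 it was -0.039 to 0.25 for P2ry12, -0.10 to 0.24 for Cx3cr1, -0.17 to 0.26 for Csf1r, -0.11 to 0.28 for Aif1, -0.74 to 0.05 for Itgam, -0.16 to 0.41 for Tyrobp, -0.19 to 0.96 for Cd68, -0.10 to 0.59 for Cd14 and -0.34 to 0.59 for Gpnmb. Leaving out both of those arrays together, an alternative chosen after seeing the data, gave the lowest values of these ranges at Fe day 15 and Fe day 30.

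Same-numbered arrays of different groups had correlations of deviations of -0.41 to 0.39, with 5 of 24 above 0.1. These gave no clear sign that the replicate numbers pair the rats, but cannot show that no pairing exists. With the replicate number as a block the median of the members was 0.13, 0.11 and 0.14 at Fe day 5, 15 and 30, and 0 members were called.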
